A study of Mus musculus with 9 samples.

Results

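The unperturbed epithelium of the mouse small intestine was described from the 3 littermate control libraries of a series of 9 RNA-seq libraries, chosen by their label as controls, with gene counts for 43629 genes each. The controls carry a floxed HIFα allele and no epithelial deletion, and the label does not say whether the floxed gene is Hif1a or Epas1. The other 6 libraries, from mice with an epithelial deletion of HIF1α or of HIF2α, were not used here. All mice were labelled naïve, although their extraction protocol speaks of collagen-induced arthritis. The labels used here state no age, sex, segment of intestine or number of animals per library. The 3 libraries are read as separate samples of 1 group, and nothing in the labels says that they came from separate animals.

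The lining of the small intestine is renewed from stem cells at the base of the crypts. Their offspring become absorptive enterocytes, which digest and take up nutrients at the brush border, or secretory cells: goblet cells that make mucus, Paneth cells that release antimicrobial peptides into the crypt, enteroendocrine cells that secrete hormones and tuft cells that sense luminal parasites and metabolites. Intraepithelial lymphocytes sit between these cells. The lining lives at low oxygen, and the hypoxia-inducible factors HIF1α and HIF2α, with their partner ARNT, are kept low by oxygen-dependent hydroxylases that mark them for the VHL ubiquitin ligase.

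Library totals were 21461212, 22493001 and 24706678 counts in control replicates 1, 2 and 3. Levels of different genes are given in TPM, which divides a gene's counts by the deposited gene length and scales the sum to the same value in each library. Levels of single genes in each library are also in TPM unless TMM-scaled CPM is named. TMM-scaled CPM are counts as a share of the library total after a trimmed-mean scaling between libraries. By TPM 64.9% of the 13049 genes with a mean of at least 1 TPM were lowest in replicate 1, and 50.6% highest in replicate 3. By TMM-scaled CPM these shares were 42.6% and 28.6%, so an order of libraries by TPM alone leans toward replicate 3 over replicate 1. All errors are SDs over the 3 libraries. A mean of at least 1 TPM was found for 13049 genes (29.9% of the table), of which 11209 were protein-coding, and 21140 genes had no count in any control.

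Control replicate 1 stood apart from the others. Pearson's r of log2 TMM-scaled CPM over 13051 genes was 0.975 between replicates 1 and 2, 0.973 between 1 and 3 and 0.990 between 2 and 3, a description across genes, which are not independent replicates. Among 8744 genes with a mean of at least 10 CPM, 69 were at least 2-fold higher in replicate 1 than in both others and 145 at least 2-fold lower, against 6 and 13 for replicate 2 and 9 and 25 for replicate 3. With library totals in place of TMM the counts for replicate 1 were 39 higher and 285 lower. Its deviation followed base composition: the median log2 difference of replicate 1 from the mean of the others was -0.38 in the 1745 genes with the lowest GC content and 0.22 in the 1745 with the highest. It also followed gene length, with 0.32 in the 1750 shortest genes and -0.13 in the 1749 longest. In TPM the median of all detected genes in replicate 1 lay 0.30 below the others on the log2 scale (-0.302), and in TMM-scaled CPM 0.01 below (-0.0068). Which of RNA quality, library preparation or biology moves with this was not tested.

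**Figure D1:**
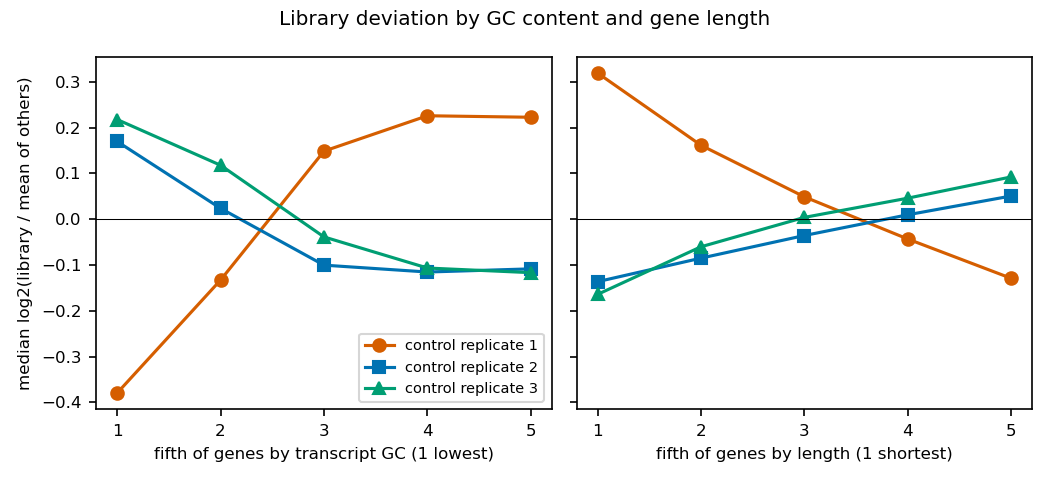
Median log2 difference of each control library from the mean of the others (TMM-scaled CPM, 8744 genes), in 5 equal groups of genes by GC content (left) and by gene length (right). The line of control replicate 1 climbs from -0.38 to 0.22 with GC content and drops from 0.32 to -0.13 with length, while the lines of replicates 2 and 3 run together.

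RNA abundance was concentrated in few genes. The 10 most abundant genes held 24.1%, 24.4% and 19.7% of TPM in control replicates 1, 2 and 3, and 128 genes held 50% of it. The 30 genes of highest mean TPM comprised 7 α-defensin genes, which encode the antimicrobial peptides of Paneth cell granules, 8 genes of the mitochondrial genome and markers of several epithelial cell types. Of these 30 genes, 12 differed more than 2-fold between the highest and the lowest library, 5 of them α-defensins.

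**Figure D2:**
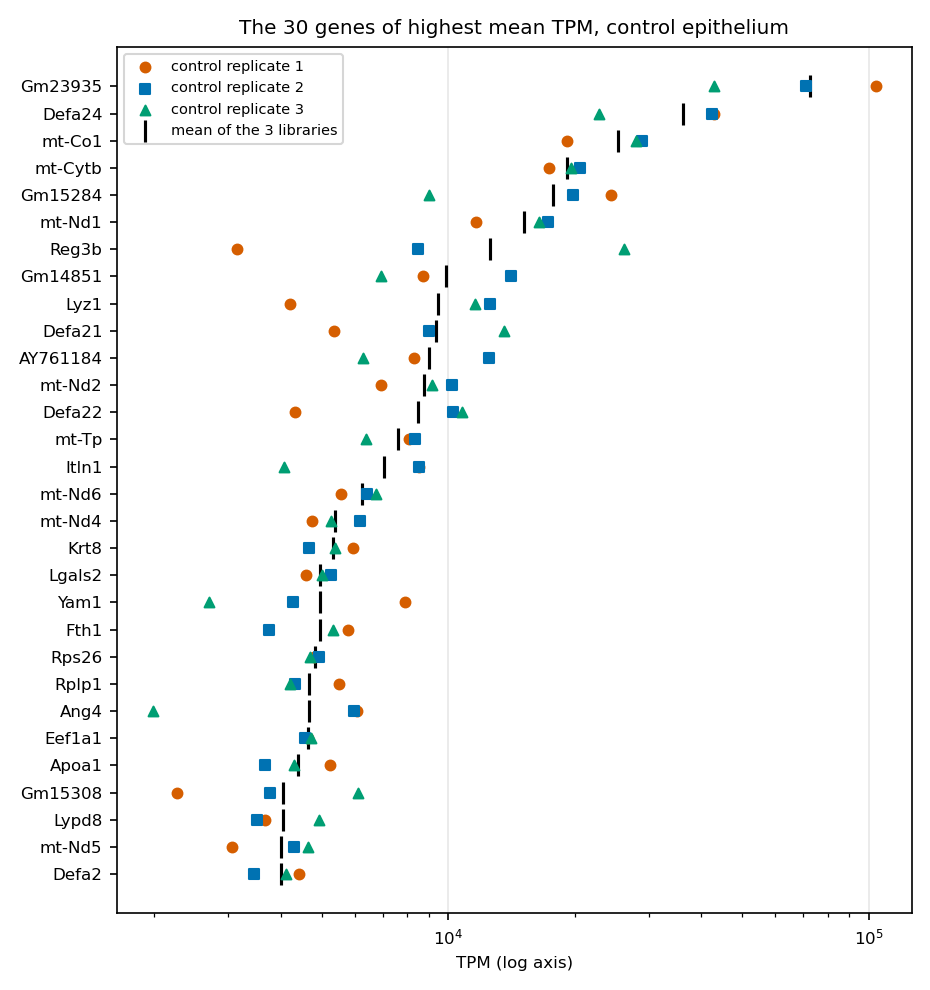
TPM (log axis) of the 30 genes with the highest mean TPM in the 3 control libraries; each symbol is a library and the bar is the mean. Eef1a1, Rps26 and Lgals2 lie close together, while Reg3b, Lyz1, Ang4 and several α-defensins are spread.

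At the head of the list was a short locus rather than a messenger RNA. Gm23935, which the deposited annotation classes as a miRNA gene, had 104096 TPM in control replicate 1, 70917 in replicate 2 and 42949 in replicate 3. It is 57 bases long, so its 75474, 51238 and 31324 counts became very large when divided by length, and it ranked 31 by CPM. It made up nearly all of the TPM of miRNA-class loci, which was 10.6%, 7.30% and 4.47% of the total in the same order of libraries. Its sequence is shown because it takes a share of TPM from every other gene, and because it cannot be placed at a single locus. The whole locus lies at chr16:11144125-11144181 on the plus strand (mm10) and reads:
Gm23935: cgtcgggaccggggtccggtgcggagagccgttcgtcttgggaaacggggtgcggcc
The same 57 bases occur in Gm24270 on chromosome 9 (888, 572 and 398 counts) and in Gm24245 on chromosome 4, which had no counts, so the assignment among the 3 copies is uncertain. Leaving out all genes shorter than 200 bases, which held 11.8%, 8.65% and 5.60% of TPM in the 3 libraries, lowered the share of the 10 most abundant genes to 17.9%. Another locus of uncertain origin, Yam1, a lincRNA-class locus on chromosome 17 that shares 94.95% of its 50-base windows with other annotated genes, had 7879, 4284 and 2703 TPM in the same order of libraries.

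Mitochondrially encoded transcripts made up 7.94%, 10.8% and 10.1% of TPM. The most abundant was mt-Co1, a catalytic subunit of cytochrome c oxidase, at 25319 ± 5356 TPM, followed by mt-Cytb of complex III at 19207 ± 1681 TPM and mt-Nd1 of complex I at 15122 ± 3034 TPM. By CPM, without length correction, mt-Co1 and mt-Cytb were the 2 most abundant genes and Defa24 the third. Among housekeeping transcripts, the translation factor Eef1a1 (4638 ± 66.3 TPM) and the ribosomal protein gene Rps26 (4812 ± 112) were close in the 3 libraries by TPM. Rplp1 had 5499, 4332 and 4199 TPM, and the iron-storage subunit Fth1 stood at 4947 ± 1060 TPM. Closeness by TPM need not hold in TMM-scaled CPM, because TPM ran low in replicate 1 for most genes. For Rplp1 the log2 range between libraries was 0.389 by TPM and 0.721 by TMM-scaled CPM.

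The α-defensins held more TPM than any other gene family described here. Among the deposited genes 44 loci of the chromosome 8 cluster bear an α-defensin name, either directly or as the current RefSeq or GENCODE symbol of a Gm identifier. The 27 protein-coding ones summed to 11.1%, 12.6% and 9.46% of TPM in control replicates 1, 2 and 3, and to 2.49 ± 0.448% of counts. Defa24 led with 43010, 42529 and 22859 TPM, and Gm15284, now named Defa30, followed with 24386, 19784 and 8998 TPM. Both were lowest in replicate 3. Defa21 ran the other way, with 5360, 9023 and 13615 TPM, and Defa22 had 4314, 10284 and 10793 TPM. Gm14851 (now Defa38) had 8711, 14077 and 6941 TPM, highest in replicate 2.

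Several members differed more between libraries than the sum over the cluster. Defa-rs7 (now Defa31) was at 318, 4165 and 76.9 TPM, more than 10 times higher in replicate 2 than in the others, and Defa3 was at 410, 1432 and 188 TPM. Reads could not always be assigned to 1 of these genes: every one of the 27 shared 50-base windows with another gene, in 23 of them over 50% of windows, and all windows of Defa-rs7 also occur in other loci, foremost Defa23. Of 16 other members with a coding sequence of the same length as Defa24, identity to it ran from 78.7% to 98.6%, with a median of 86.5%. The coding sequences of the leading pair, both 282 bases, are shown to illustrate how near such copies are. They differ at 4 bases, which are in capitals; both genes lie on the plus strand, at chr8:21734494-21735471 for Defa24 and chr8:21134642-21135598 for Gm15284 (mm10).
Defa24: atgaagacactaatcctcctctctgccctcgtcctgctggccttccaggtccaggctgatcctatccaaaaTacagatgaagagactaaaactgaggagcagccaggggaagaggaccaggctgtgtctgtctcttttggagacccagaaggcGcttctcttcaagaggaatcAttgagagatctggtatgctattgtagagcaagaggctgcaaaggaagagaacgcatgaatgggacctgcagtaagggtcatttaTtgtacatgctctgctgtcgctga
Gm15284: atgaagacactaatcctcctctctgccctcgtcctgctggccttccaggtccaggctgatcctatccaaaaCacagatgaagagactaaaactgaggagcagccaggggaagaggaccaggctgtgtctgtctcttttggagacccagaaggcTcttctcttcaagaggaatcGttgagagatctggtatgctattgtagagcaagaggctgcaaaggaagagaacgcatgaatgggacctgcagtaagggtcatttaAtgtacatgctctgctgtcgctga
Other granule and secreted defence proteins were abundant too. The Paneth lysozyme Lyz1 had 4208, 12547 and 11588 TPM, the intelectin Itln1 8512, 8502 and 4060 TPM, and the angiogenin Ang4, an antimicrobial ribonuclease, 6071, 5965 and 1987 TPM. Lyz1 was lowest in replicate 1, and Itln1 and Ang4 in replicate 3. Lyz2, the lysozyme of macrophages, stood at 7.76 ± 4.04 TPM, so Lyz1 made up 99.9% of lysozyme TPM.

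In most gene families 1 member held the larger part of the family's transcripts. Of 62 families, 41 had a leading member with over 50% of the family's summed TPM, which families of 2 members reach by arithmetic. In 9 families the leading member held over 90%, and in 53 the same gene led in each of the 3 libraries. By CPM another gene led in 9 of the 62. Of the family members 368 of 656 (56.1%) had a mean of at least 1 TPM, against 29.9% of all genes of the table. Among protein-coding genes 11209 of 22196 did, a share much nearer to that of the families. The families were chosen for their known roles in intestine.

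Among transporters of sugars, the sodium-glucose cotransporter Slc5a1 (606 ± 110 TPM) held 86.4% of its family. The fructose transporter Slc2a5 (100.9, 53.4 and 83.5 TPM) led the facilitated hexose transporters ahead of the basolateral Slc2a2 (39.3, 31.9 and 55.5 TPM) in each library. The peptide transporter Slc15a1 (129 ± 26.9 TPM) held 93.6% of its family. Amino acid exchange was spread over Slc7a7, Slc7a9 and Slc7a8, at 182 ± 34.1, 158 ± 26.3 and 153 ± 16.4 TPM, with overlapping ranges, and with the heavy chain Slc3a2 at 191 ± 20.7 TPM. Slc39a5 and Slc39a4, which import zinc, had 252 ± 13.4 and 173 ± 26.4 TPM.

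Genes of lipid handling followed. The chylomicron protein Apoa1 had 5242, 3673 and 4296 TPM and held 66.3% of apolipoprotein TPM, ahead of Apoa4 at 1252 ± 127 TPM. The cellular retinol carrier Rbp2 stood at 2653 ± 570 TPM. Among fatty acid binding proteins the order was not fixed: Fabp1 had 1357, 1222 and 2002 TPM and Fabp2 786, 1334 and 2045 TPM, with Fabp1 ahead in replicate 1 only. The ileal bile acid binder Fabp6 had 492, 541 and 1728 TPM. The acyltransferases Dgat1 (501 ± 64.9 TPM) and Mogat2 (374 ± 89.5 TPM) and the transport protein Slc27a4 (197, 172 and 251 TPM) act in fatty acid uptake and triglyceride synthesis.

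Brush border digestion was led by the aminopeptidase Anpep, at 1828, 1677 and 2506 TPM, and by the alkaline phosphatase Alpi, at 656, 383 and 746 TPM. The second alkaline phosphatase, Akp3, was far less even, at 509, 49.6 and 302 TPM. The 4 disaccharidases were all above 50 TPM in every library, with lactase (Lct, 212 ± 24.7 TPM) and trehalase (Treh, 196 ± 41.4 TPM) ahead of Mgam (121 ± 31.8) and sucrase-isomaltase (Sis, 90.8 ± 15.1).

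In xenobiotic metabolism, the leading members were Cyp2d26 (212 ± 41.1 TPM) of the P450 2 family, Cyp3a13 (90.1 ± 33.5 TPM) of the P450 3 family, Cyp4f14 (494 ± 69.1 TPM) of the P450 4 family, the carboxylesterase Ces2e (588 ± 101 TPM) and the aldehyde dehydrogenase Aldh1b1 (1201 ± 28.7 TPM). Glutathione transferases were led by Gstm3 in replicates 2 and 3 (746 and 1140 TPM) and by Gsto1 in replicate 1 (587 TPM, with Gstm3 at 460.5). The alcohol dehydrogenases Adh1 and Adh6a had nearly equal means of 254 ± 66.7 and 254 ± 99.9 TPM.

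Among structural and barrier genes, Krt8 (5323 ± 628 TPM) held 56.0% of keratin TPM, followed by Krt19 (3076 ± 325), Krt18 (612 ± 100) and Krt20 (429 ± 127), and 9 of 47 keratins were detected. Cldn7 led the claudins of the tight junction in all 3 libraries at 1021 ± 56.2 TPM, with Cldn3 at 771 ± 47.4 and the paracellular cation channel Cldn15 at 756 ± 119 TPM. E-cadherin (Cdh1) had 374 ± 38.0 TPM and the microvillus motor Myo1a 727 ± 90.5 TPM. Among mucins, the membrane-bound Muc13 (509, 876 and 1123 TPM) was ahead of the gel-forming Muc2 (413, 442 and 551 TPM) in each library by TPM, while by CPM Muc2 led, and Muc3 (518, 376 and 384 TPM) led in replicate 1. Tff3 supplied 99.7% of trefoil factor TPM, at 2764 ± 356 TPM. Among galectins, Lgals2 (4955 ± 334 TPM) exceeded Lgals4 (3022 ± 222 TPM) in TPM, while by CPM Lgals4 led.

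Transcription factors that specify the intestine were detected in every library. Hnf4a, a regulator of enterocyte genes, stood at 452 ± 31.6 TPM, Cdx1 and Cdx2 at 296 ± 24.9 and 272 ± 17.8 TPM, Klf5 at 285 ± 41.8 TPM, Gata4 at 126 ± 7.66 TPM and Ppard at 120 ± 2.43 TPM. The ratio of Cdx1 to Cdx2 was 1.09 ± 0.0447, above 1 in each library by TPM, while by CPM Cdx2 led. Hnf4g, the paralog of Hnf4a, had 15.5, 54.4 and 63.1 TPM, so the Hnf4a to Hnf4g ratio was 28.2 in replicate 1, against 7.93 and 7.74 in replicates 2 and 3.

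Markers of absorptive, goblet and Paneth cells were all detected. Summed over fixed lists, Paneth markers made up 8.80 ± 1.22% of TPM, absorptive enterocyte markers 1.79 ± 0.289% and goblet markers 1.32 ± 0.160%; all 17, 23 and 16 genes of these lists were detected. The labelled epithelium thus carried its defining markers. Lists differ in length and in how strongly their genes are transcribed, so these sums do not count cells, and in bulk RNA fewer cells of a type cannot be told apart from less RNA per cell. Goblet cells showed the lectin-like Zg16 (2909, 3284 and 5783 TPM), Spink4 (4362, 2786 and 2026 TPM) and the mucus protein Fcgbp (392, 639 and 926 TPM), with Zg16 and Fcgbp highest and Spink4 lowest in replicate 3.

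**Figure D3:**
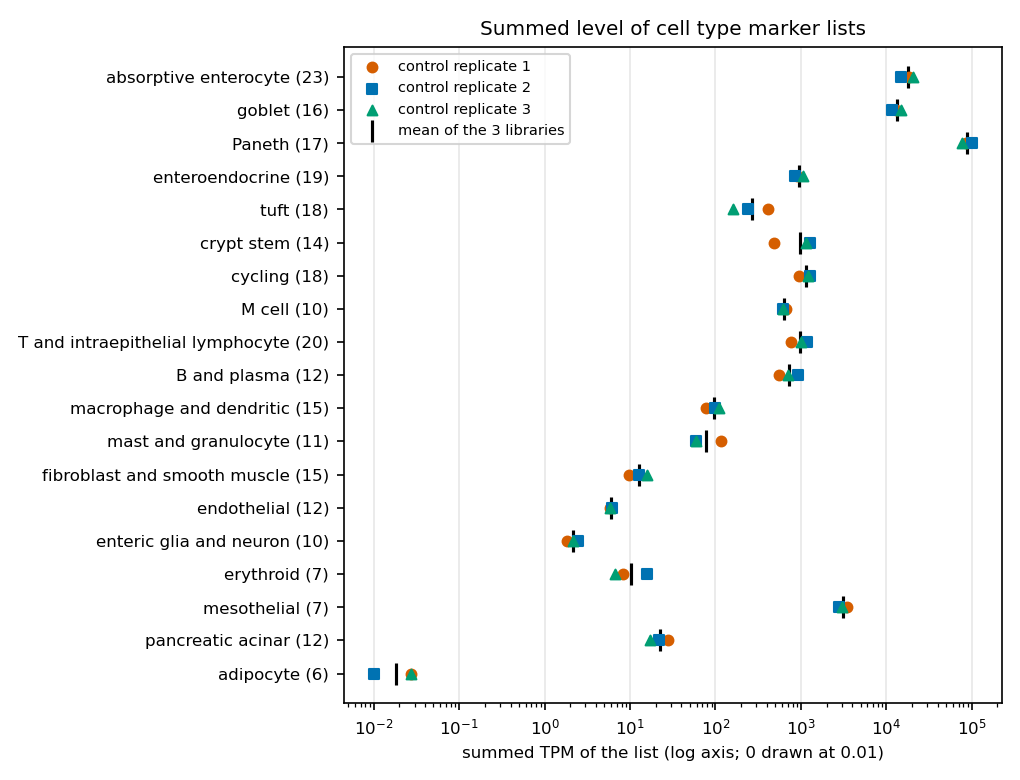
Summed TPM (log axis) of each cell type marker list in the 3 control libraries, with the number of matched genes in brackets and a bar at the mean. The Paneth, enterocyte and goblet lists are the highest, and the endothelial, glial and adipocyte lists the lowest; the mesothelial sum is 99.9% Krt19.

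Rarer epithelial cells were detected at lower levels. Enteroendocrine cells showed the hormones Gip (284, 210 and 265 TPM), Cck (127, 123 and 151 TPM), Sst (125 ± 19.4 TPM) and Sct (89.6 ± 13.7 TPM) and the granule protein Chga (80.7, 113 and 131 TPM), and 16 of 19 matched markers were detected. Among stem cell markers, Olfm4 had 190, 897 and 797 TPM, Smoc2 78.3 ± 15.5 TPM, Ascl2 27.4 ± 3.77 TPM and the receptor Lgr5 1.60 ± 0.580 TPM. Proliferation genes were present at 49.9 TPM in the median of 18 genes, with Mki67 at 6.84 ± 0.823 and Top2a at 19.1 ± 4.89 TPM. Of the M cell list 6 of 10 genes were detected and Pglyrp1 made up 83.6% of its sum. The M cell receptor Gp2 was near 0, at 0.119 ± 0.105 TPM, and Spib had 45.4, 25.4 and 17.2 TPM.

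Tuft cell genes were ordered by library. Alox5ap, which acts in leukotriene synthesis, had 63.4, 27.7 and 15.5 TPM, and the adaptor Sh2d6 84.5, 58.9 and 39.5 TPM. Also by TMM-scaled CPM 15 of 16 detected tuft genes were highest in replicate 1 and 15 lowest in replicate 3, whereas of all detected genes 41.2% were highest in replicate 1 and 28.8% lowest in replicate 3. The transcription factor Pou2f3 (12.6, 6.05 and 4.15 TPM) and the channel Trpm5 (23.2, 16.1 and 10.4 TPM) followed the same order. Of 14 stem cell genes 10 were highest in replicate 2 (71.4%, against 30.2% of all detected genes), 9 were lowest in replicate 1 (64.3%, against 42.6%) and 5 lowest in replicate 3 (35.7%, against 28.8%). By TPM 12 of 14 were lowest in replicate 1, against 64.9% of all detected genes.

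Lymphocyte and plasma cell transcripts accompanied the epithelium. The granzymes Gzma (157, 364 and 318 TPM) and Gzmb (123 ± 20.5 TPM), the chemokine Ccl5 (250 ± 28.3 TPM) and the T cell receptor subunit Cd3e (38.9 ± 5.42 TPM) were detected, as were the antibody chains Igkc (349, 626 and 447 TPM) and Igha (62.9, 121 and 98.9 TPM). Of 15 macrophage and dendritic genes 10 were detected, 3 of them at 10 TPM or more, with a median of 3.53 TPM over the list. Cd14 led with 25.9% of a summed 95.5 ± 16.1 TPM, and the complement component C1qa stood at 4.43 ± 0.902 TPM. Mast cell proteases were led by Mcpt1 at 88.7, 33.1 and 37.8 TPM, highest in replicate 1. Few stromal markers were detected, 2 of 15 for fibroblasts and smooth muscle and 2 of 12 for endothelium, led by the contractile-cell gene Tagln (6.53 TPM) and the endothelial Lyve1 (2.11 TPM) and Esam (2.03 TPM). The defining markers were close to 0: Col1a1, Col1a2, Col3a1 and Dcn averaged 0.0956, 0.0496, 0.147 and 0.151 TPM, the endothelial Pecam1 0.501 TPM and Cdh5 0.0392 TPM. Of 6 adipocyte genes 5 had no count in any library, which allows at most 0.140, 0.133 and 0.121 CPM each, for counting error only. All non-epithelial lists together summed to 0.501 ± 0.00737% of TPM. Without Krt19, an epithelial keratin that the mesothelial list contains, the sum was 0.157%, 0.231% and 0.192%.

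Segment markers were detected for 13 of 14 proximal, 8 of 8 jejunal and 11 of 13 distal genes, and also for 7 of 9 colon genes, led by Car4 (445, 218 and 252 TPM). The proximal factor Gata4 and the proximal enzyme Lct stood beside Pdx1, a duodenal factor, at 7.76, 2.38 and 6.06 TPM. The jejunal list had a median of 130 TPM over 8 genes. Among distal genes, the bile acid exporter subunits Slc51a and Slc51b had 293 ± 58.0 and 187 ± 53.8 TPM, while the ileal bile acid importer Slc10a2 had 2.68 ± 1.21 TPM. Fabp6 was highest in replicate 3.

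Transcripts of the HIF pathway spanned a wide range of levels. The most abundant were Tceb2, the elongin B subunit of the VHL ligase, at 646, 525 and 562 TPM, and Gnb2l1, a scaffold protein with many other roles, at 630, 556 and 528 TPM. Among the hydroxylases Egln2 led at 76.7, 72.4 and 76.8 TPM, with Egln1 at 42.9, 33.0 and 32.3 TPM and the asparaginyl hydroxylase Hif1an at 21.6 ± 0.927 TPM. Vhl, the substrate receptor of the ligase, stood at 14.5 ± 1.18 TPM. The transcription factor subunits were lower: Arnt had 6.90, 8.42 and 10.4 TPM, Epas1, which encodes HIF2α, 9.92, 5.29 and 8.18 TPM, and Hif1a 4.36, 6.56 and 7.36 TPM. Arnt was above Hif1a in each library, while the place of Epas1 relative to both changed with the library, and Hif3a was low at 0.269 ± 0.134 TPM. Of 25 pathway genes 22 were detected (88.0%, against 29.9% of all genes and 11209 of 22196 protein-coding genes). The median over all 25 was 14.5 TPM. It was 11.1 TPM over all detected genes, which leave out genes below 1 TPM, and 0.0128 TPM over all genes of the table.

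Whether Epas1 or Hif1a was the more abundant depended on the library. The Epas1 to Hif1a ratio was 2.28 in control replicate 1, 0.807 in replicate 2 and 1.11 in replicate 3, with a mean of 1.40 ± 0.775 and of 0.960 without replicate 1. Hif1a has a GC content of 41.3% and Epas1 of 52.5%, and replicate 1 was low in genes of low GC content. After correction of the levels for GC content the ratio was 1.72, 0.943 and 1.29. Hif1a then had 6.14, 5.58 and 6.06 TPM, and Epas1 10.6, 5.27 and 7.81 TPM.

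Egln3 was the pathway gene that differed most between libraries. This hydroxylase, itself a HIF target, had 71.4, 16.8 and 19.4 TPM, and 121, 23.9 and 26.2 in TMM-scaled CPM, so replicate 1 lay apart from the others. After GC correction it had 76.9, 16.6 and 18.4 TPM. The promoter is shown with the HIF core motif ACGTG in capitals, searched on both strands: its only match in the window lies 229 bases upstream of the start. This motif occurs in 19.7% of 27025 promoter windows of the same length (RefSeq, GRCm38.p6), and a match is no proof of a site. The window is chr12:54203825-54204124, minus strand.
Egln3: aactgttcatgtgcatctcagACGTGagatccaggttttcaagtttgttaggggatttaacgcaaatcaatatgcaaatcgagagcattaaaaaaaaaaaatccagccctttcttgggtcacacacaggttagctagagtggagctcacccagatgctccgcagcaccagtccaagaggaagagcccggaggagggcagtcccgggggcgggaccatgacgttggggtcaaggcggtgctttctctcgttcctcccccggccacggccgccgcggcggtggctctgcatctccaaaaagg

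Most HIF target genes were detected in the controls. Of 67 targets 50 had at least 1 TPM (74.6%, against 29.9% of all genes and 11209 of 22196 protein-coding genes). The median over all 67 targets was 10.05 TPM. It was 11.1 TPM over all detected genes, which leave out genes below 1 TPM. Over all genes of the table, of which 21140 had no count, it was 0.0128 TPM. The most abundant were Fth1 and Tff3, given above. Glycolytic targets came next: Ldha, lactate dehydrogenase, had 1576, 1050 and 1277 TPM and held 99.8% of its family, with Ldhb at 0.534 ± 0.371 TPM. Tpi1 (859 ± 168 TPM), Pkm (806 ± 164 TPM) and Aldoa (476 ± 57.2 TPM) followed. Hkdc1 held 88.1% of hexokinase TPM at 143 ± 21.1 TPM. The ubiquitous glucose transporter Slc2a1 was at 21.7 ± 1.83 TPM, Pgk1 at 143, 213 and 259 TPM and Pdk1, which limits pyruvate entry to mitochondria, at 4.77, 11.9 and 13.4 TPM. Pgk1 and Pdk1 were lowest in replicate 1. Pgk1 shares 53.9% of its windows with other loci.

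**Figure D4:**
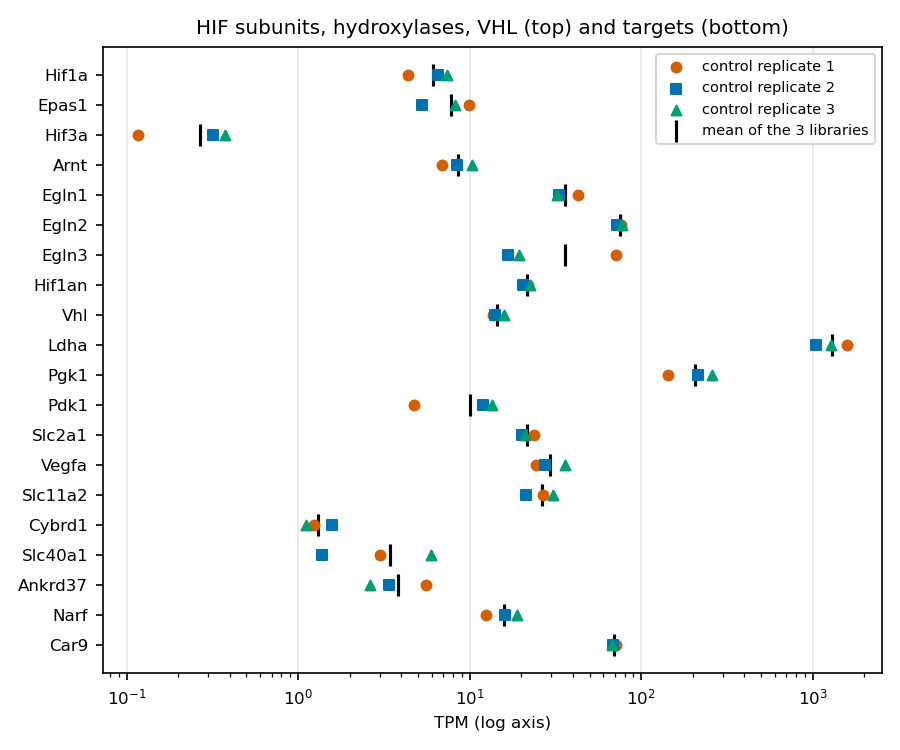
TPM (log axis) of HIF subunits, hydroxylases and Vhl, above, and of selected HIF targets, below, in the 3 control libraries, with a bar at the mean. Egln2, Hif1an, Vhl, Slc2a1 and Car9 lie close together, Egln3 is highest in replicate 1, and Hif1a and Epas1 change places.

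Targets in iron handling ranged widely. Fth1 was among the 30 most abundant genes, the apical iron importer Slc11a2 had 26.9, 21.4 and 30.5 TPM, the exporter ferroportin (Slc40a1) 3.0, 1.38 and 5.95 TPM and the duodenal ferric reductase Cybrd1 1.24, 1.57 and 1.11 TPM. Among other targets, Vegfa had 24.4, 27.3 and 36.0 TPM, Car9 71.7, 68.8 and 67.8 TPM, Narf 12.4, 16.1 and 19.0 TPM and Ankrd37 5.55, 3.37 and 2.62 TPM. By TMM-scaled CPM Narf was lowest and Ankrd37 highest in replicate 1, and Vegfa was lowest in replicate 2. The targets Epo and Flt1 had no counts, which allows up to 0.140, 0.133 and 0.121 CPM each. By TMM-scaled CPM 33 of 50 detected targets were highest in replicate 1 (66.0%, against 41.2% of all detected genes). By TPM 24 of 50 were (48.0%, against 18.8%).

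The spread between the 3 controls was summarised by a common biological coefficient of variation of 0.232 over 13051 genes. Without replicate 1 it was 0.141, without replicate 2 0.270 and without replicate 3 0.262. The median CV of TPM over detected genes was 19.3%, and 8.77% without replicate 1. Among the 8744 genes with a mean of at least 10 CPM, the CV of TMM-scaled CPM had a median of 14.9%, quartiles of 8.88% and 22.5%, and exceeded 50% in 120 genes (1.37%).

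The 15 most variable of these genes included 10 that were highest in replicate 1, 4 in replicate 2 and 1 in replicate 3. Those high in replicate 1 included the phospholipase Pla2g4c (291, 45.2 and 3.29 TMM-scaled CPM), Retnlb, a goblet cell protein known from worm infection (29.7, 2.91 and 2.06), the gasdermin C pseudogene Gsdmcl2 (119, 24.6 and 4.88), Sprr2a3 (255, 56.4 and 19.7), Egln3, the lectin Mbl2 (28.4, 4.89 and 7.26), the oxidase maturation factor Duoxa2 (249, 59.6 and 55.2) and the clock output factor Dbp (23.7, 4.72 and 6.82). Akp3 had 682, 55.6 and 321 TMM-scaled CPM, lowest in replicate 2. Those high in replicate 2 were Defa-rs7, Defa3 and the loci Gm8730 (29.9, 524 and 25.9) and Gm9625 (8.63, 77.2 and 4.44). Gm8730 shares 73.7% and Gm9625 50.8% of their windows with other genes, among them the ribosomal protein gene Rplp0 for Gm8730. Rplp0 itself had 2868, 1577 and 1981 TMM-scaled CPM, lowest in replicate 2. At the other end, the 10 genes of smallest CV, with means of 17.2 to 78.5 TMM-scaled CPM, had CVs of 0.0886% to 0.445%. Among them were the phosphatase Nudt4, the sorting nexin Snx6, the histone methyltransferase Ezh1 and the nuclear receptor Nr5a2. These are the lowest values picked from 8744 genes with 3 libraries each, and they were not compared with counting noise. They do not show that these genes are steadier than others.

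**Figure D5:**
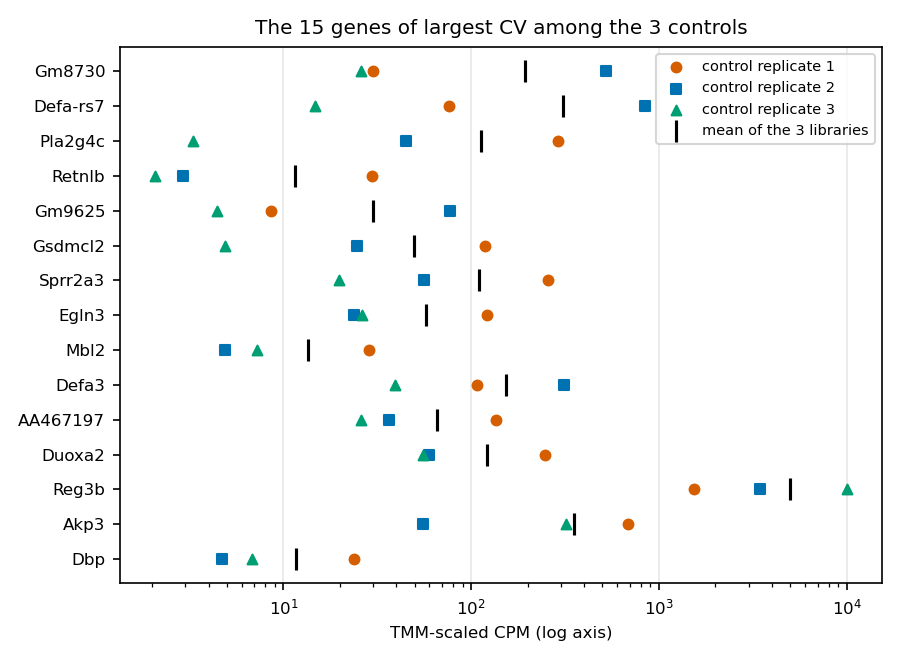
TMM-scaled CPM (log axis) of the 15 genes with the largest CV among the 3 control libraries, at a mean of at least 10 CPM; bars are means. Control replicate 1 is highest for 10 of them, replicate 2 for Gm8730, Defa-rs7, Gm9625 and Defa3, and replicate 3 for Reg3b.

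Reg3b, which like its neighbour Reg3g encodes a secreted antibacterial lectin, showed the largest absolute difference between libraries after Gm23935 among the 10 most abundant genes. It had 3152, 8494 and 26172 TPM, and its neighbour Reg3g 452, 1568 and 4321 TPM. The Reg3b to Reg3g ratio was 6.97, 5.42 and 6.06, which varied far less than the level of either gene. Reg1 had 321, 327 and 1434 TPM, and Nos2, an inducible defence enzyme, 10.1, 23.4 and 60.8 TPM, both also highest in replicate 3. The promoters of Reg3b (chr6:78370635-78370934, plus strand) and Reg3g (chr6:78468825-78469124, minus strand) are shown because the levels of the pair varied together, from 250 bases before to 50 after the start, with TATAAA on either strand in capitals (RefSeq, GRCm38.p6).
Reg3b: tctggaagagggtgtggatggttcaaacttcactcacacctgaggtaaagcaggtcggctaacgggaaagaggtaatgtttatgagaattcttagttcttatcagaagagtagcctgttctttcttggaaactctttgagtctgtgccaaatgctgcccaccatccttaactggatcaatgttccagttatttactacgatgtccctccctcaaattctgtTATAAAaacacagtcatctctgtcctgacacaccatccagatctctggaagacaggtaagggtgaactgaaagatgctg
Reg3g: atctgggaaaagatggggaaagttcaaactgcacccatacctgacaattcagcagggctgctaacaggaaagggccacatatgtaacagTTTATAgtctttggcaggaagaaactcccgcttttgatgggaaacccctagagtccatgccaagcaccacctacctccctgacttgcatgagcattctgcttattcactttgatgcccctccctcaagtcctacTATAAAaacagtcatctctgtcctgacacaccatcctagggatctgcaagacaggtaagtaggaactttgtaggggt
A forward match lies 29 bases upstream of the Reg3b start and 27 bases upstream of the Reg3g start, and Reg3g has a reverse match 161 bases upstream. TATAAA occurs on either strand in 14.2% of 27025 such windows, and on the forward strand between 40 and 11 bases upstream in 2.3%.

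Gene groups that were assembled after these differences had been seen are described by their counts only. Of 12 detected genes linked to type 2 immunity, including Gsdmc4 (300, 150 and 49.7 TPM), Sprr2a1 (258, 115 and 59.3 TPM), Mcpt1 and Retnlb, 10 were highest in replicate 1 (against 41.2% of all detected genes) and 9 lowest in replicate 3 (against 28.8%). Tuft cell genes, given above, had the same order of libraries. Among the type 2 genes, Sprr2a1 shares 96.3% of its windows with other genes, foremost Sprr2a2, and Gsdmc4 39.0%, foremost Gsdmc2. Reads may not be told apart between such copies, so these genes are not independent of each other. Of 13 genes that respond to microbes, including Reg3b, Reg3g, Nos2 and Lypd8 (3675, 3513 and 4934 TPM), 11 were highest in replicate 3 (against 28.6% of all detected genes), and so were 6 of 7 MHC class II genes, led by Cd74 (1729, 1894 and 2785 TPM). Of 13 detected immediate early genes 12 were highest in replicate 1 (against 41.2%), among them Fos at 49.4, 19.7 and 31.4 TPM. These counts are by TMM-scaled CPM, and by TPM they were 10, 11, 7 and 9, where 18.8% of all detected genes were highest in replicate 1 and 50.6% in replicate 3. Clock genes showed no common order: Arntl had 14.3, 26.4 and 27.7 TPM, lowest in replicate 1, and Nr1d1 50.5, 47.2 and 64.1 TPM, lowest in replicate 2.

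Length correction changed which genes seemed abundant. The 10 most abundant genes held 22.7% of TPM and 8.42% of CPM, and 50% of the total was reached with 128 genes by TPM and with 649 by CPM. Among genes with at least 10 TPM, the 15 with the largest gain in rank from CPM to TPM were 12 to 100 bases long, such as the mitochondrial tRNA mt-Te (55.8 TPM, rank 2215 by TPM and 11717 by CPM) and the small nucleolar RNA Snord104 (119 TPM, rank 1095 and 10345). The T cell receptor segment Trbd1, 12 bases long, ranked 3452 by TPM and 15881 by CPM. The 10 with the largest loss were 13086 to 23507 bases long, among them the ubiquitin ligase Huwe1 (190.8 CPM, rank 998 by CPM and 5720 by TPM). For loci this short the TPM rests on few counts and on the deposited length.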

How the data were processed

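Epithelial RNA of small intestine was prepared with Illumina TruSeq chemistry (labels' protocols). The authors deposited raw counts per gene with gene length, name and class. The submitters' processing notes name CASAVA, Bowtie 0.12.2 and mm10; how reads were counted, on which annotation and strand, is not stated in the labels, so copies, overlapping and antisense genes are uncertain. Of 43629 identifiers 42462 were in GENCODE M21, and 74.7% of those had the M21 exon-union length. Only the 3 control columns were used, with no test between groups.

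TPM were computed from counts and deposited length, CPM from library totals, and TMM factors (0.928, 1.06 and 1.02) and the common coefficient of variation, over genes with a mean of at least 1 CPM, with edgeR 4.0.16 in R 4.3.3; DESeq2 1.42.0 was an alternative. The edgeR estimate of the common coefficient of variation was tested on counts simulated with a known value. The chi-square per gene between libraries was at least 29.9, where counting noise gives about 1, so none is a copy of another. Whether they are separate animals is not shown, and the spread between libraries may be technical. Shared sequence is the percent of a gene's 50-base windows found in M21 transcripts of another gene. GC correction divided each library's TPM by its median deviation within 20 bins of GC content.

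Lists and families were chosen with earlier results of these data known. The genes named are a selection from those the naming rule took: the 30 highest by TPM, leading members of families and marker lists, the HIF genes, the 15 most and 10 least variable genes and the largest moves in rank. Rplp0, Fcgbp, Sct and the type 2, microbe, MHC, clock and immediate early groups were added after their values were seen. A count of 3 equals 0.121 to 0.140 CPM.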

Additional observations from a re-analysis of the deposited data

How the results depend on the processing

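Of 69 alternative settings over 10 summary values, 56 left the value within 1 SD of the libraries, or within 1.5 times for counts and coefficients of variation. By CPM the 10 most abundant genes held 8.42%, 50% of the total took 649 genes and the non-epithelial share was 0.453%. Without mitochondrial genes the non-epithelial share was 0.555% and the HIF core and target medians were 16.1 and 11.2 TPM; with the M21 length the non-epithelial share was 0.523%. Chosen after seeing the data, leaving out genes under 200 bases gave a top-10 share of 17.9% and a non-epithelial share of 0.549%, and leaving out Krt19 a share of 0.194%. Leaving out 1 library gave a coefficient of variation of 0.141 to 0.270, a median CV of 8.77% to 20.3% and a HIF target median of 8.61 to 9.85 TPM; in the first 2 the low end is without replicate 1, and so is that of the target median. The cause was not tested. GC correction, also chosen after seeing the data, lowered the median CV to 15.2%. The number of detected genes was 14662 at a threshold of 0.5 TPM and 8894 at 5 TPM. No paired analysis was possible because only 1 group was used. With 3 libraries of 1 group, differences between libraries have no test.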
